A study of Homo sapiens with 4 samples.

Results

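CIAO2B (formerly FAM96B) encodes a subunit of the complex that hands iron-sulfur clusters to proteins of the cytosol and nucleus. It was chosen by its fall in the comparison described here, which is among the largest in the table, and its values are therefore given as a description with no test. The other 8 genes were chosen from the pathway, not by their own values. They are NUBP1, NUBP2, CIAPIN1, NDOR1, CIAO3 (formerly NARFL), CIAO1, MMS19 and CIAO2A (formerly FAM96A). All 9 genes were among the 28729 in the table, and all 9 passed the filter of a mean of at least 1 FPKM, as did 12645 genes in all. FPKM is the number of fragments divided by gene length and by library size, so levels of different genes are compared per length.

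The cells were TU-177, a line of laryngeal squamous cell carcinoma (LSCC). By the labels, both groups received lentivirus and puromycin selection. In the SKA3-KD group (2 libraries) the virus carried a short hairpin RNA against SKA3, a component of the SKA complex that holds kinetochores on microtubules during mitosis, and in the NC group (2 libraries) a negative control hairpin. The study's methods also describe siRNA and a CRISPR-based stable knockdown of SKA3 and do not say which cells were sequenced, so the agent rests on the labels alone. Nothing says that the 2 libraries of a group came from separate cultures, so p-values measure only the spread between these samples, which may be technical.

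Clusters of iron and sulfur are cofactors built in the mitochondrion and, for proteins outside it, by a separate cytosolic machinery. NUBP1 and NUBP2 form the scaffold on which a cluster is assembled, and NDOR1 and CIAPIN1 pass electrons to it. CIAO3 links the scaffold to the targeting complex of CIAO1, CIAO2B and MMS19, which places the cluster in client proteins such as DNA polymerases and helicases. CIAO2A, a paralog of CIAO2B, serves the maturation of ACO1, the cytosolic aconitase that also acts as an iron regulatory protein.

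SKA3 was at 9.40 and 9.64 FPKM in NC and at 3.77 and 4.12 FPKM in SKA3-KD, so the groups did not overlap. Its difference on the log2(FPKM + 1) scale was -1.09 ± 0.0749 (SE, n = 2 per group, limma, adjusted p = 0.00806). With 1 library left out, the difference lay between -1.14 and -1.04. By the means of plain FPKM, 41.4% of the NC level was left. The library sizes behind the FPKM lay between 9015054 and 11966128 reads. Of the squamous markers, KRT5, KRT14 and KRT6A were at or near 0 FPKM and TP63 and CDH1 under 1 FPKM in every library, whereas KRT17, EPCAM and SFN were present, so the label rests on part of its markers. The summed level of 8 squamous markers was 167 to 208 FPKM over the 4 libraries.

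CIAO2B was the member that differed most between the groups. Its level was 40.0 and 37.3 FPKM in NC and 9.56 and 9.36 FPKM in SKA3-KD. Both SKA3-KD libraries lay far below both NC libraries, and the libraries of a group were close to each other. The group means were 38.6 ± 1.96 FPKM and 9.46 ± 0.141 FPKM (SD, n = 2 each), so that 24.5% of the NC level was left. These levels rest on 512 and 359 reads in NC and 104 and 118 reads in SKA3-KD, inferred from the smallest steps between FPKM values. On the log2(FPKM + 1) scale, which understates changes of low genes, the difference was -1.92. The log2 ratio of plain FPKM lay between -2.10 and -1.96 over the 4 pairs of an SKA3-KD and an NC library. Replicates differed by -0.10 (NC) and -0.03 (SKA3-KD) on the log2 scale, where read counting alone gives a standard error of 0.0993 and 0.194. In bulk RNA a lower level in every cell and fewer cells with the transcript cannot be told apart.

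**Figure D1:**
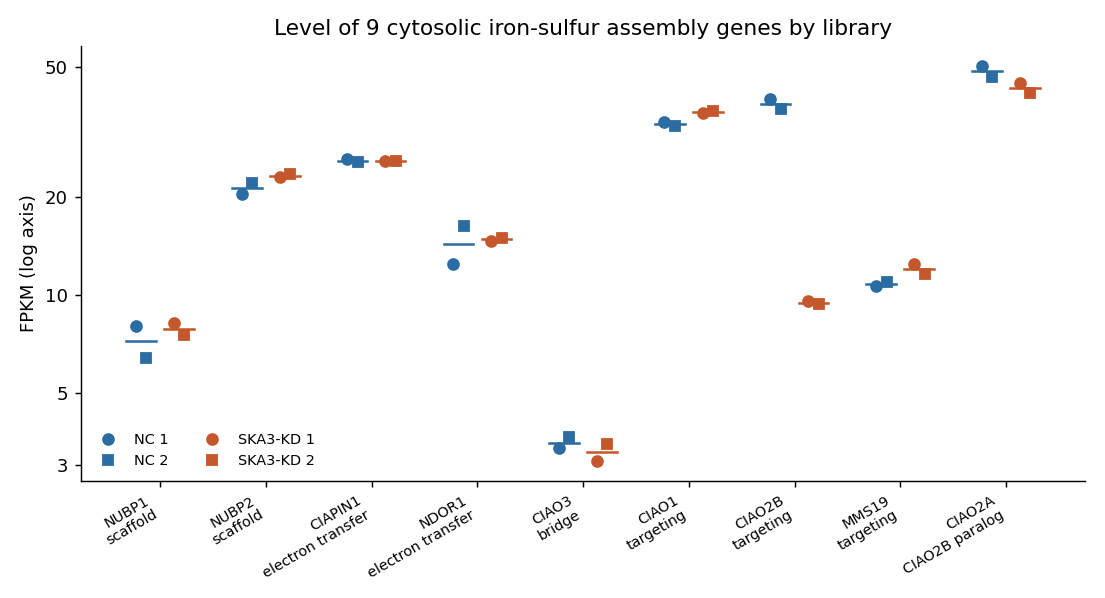
FPKM (log axis) of the 9 genes in the 4 libraries, in order of role; circles are replicate 1, squares replicate 2, and bars the group means. CIAO2B drops from 38.6 FPKM in NC to 9.46 FPKM in SKA3-KD, while the points of the other 8 genes lie at similar heights in both groups.

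Ranked by the difference on the log2(FPKM + 1) scale, CIAO2B was the lowest of the 11475 genes that averaged 20 or more reads. It was the 9th lowest of all 12645 genes tested. The next genes above it were PDK4, an inhibitory kinase of pyruvate dehydrogenase, at -1.84, and RHOBTB1 at -1.78. Over the 4 libraries, the centred log2(FPKM + 1) profiles near to that of CIAO2B among these genes included those of RHOBTB1 (Euclidean distance 0.157), PERP (0.167), PDK4 (0.169) and SH3GL2 (0.271). PERP, a desmosome-associated membrane protein, was at 72.7 and 66.1 FPKM in NC and at 20.5 and 18.6 FPKM in SKA3-KD. SH3GL2, an endophilin gene, was at 7.31 and 5.95 FPKM in NC and at 1.23 and 1.45 FPKM in SKA3-KD. By plain FPKM it kept 20.2% of its NC level, less than the 24.5% of CIAO2B. SH3GL2 also lay below CIAO2B with a pseudocount of 0.1 (-2.22 against -2.02) and with voom on the recovered reads (-2.31 against -2.04). The rank of CIAO2B thus depends on the scale. These genes were chosen on the likeness itself, and with 2 groups of 2 libraries a near profile means little more than a fall of about the same size.

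None of the other 8 members passed the threshold (limma, adjusted p under 0.05), and none did so at an unadjusted p under 0.05 or with voom on the recovered reads. Over all genes tested, 6.11% were called lower and 6.16% higher, 31.3% had an unadjusted p under 0.05 in either direction, and voom called 25.4% in either direction. Of the 8, 3 had a lower and 5 a higher mean in SKA3-KD, with differences from -0.16 to 0.14 and a median of 0.08 on the log2 scale, where the median of all genes tested was 0.01. In 1 of the 8 (CIAO2A) both SKA3-KD libraries lay below both NC libraries, as they did in 29.2% of all genes tested. In 3 of the 8 (CIAO1, MMS19 and NUBP2) both lay above, as in 32.3% of all genes tested. The summed level of the 8 genes was 165.5 and 164.6 FPKM in NC and 168.2 and 165.1 FPKM in SKA3-KD.

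**Figure D2:**
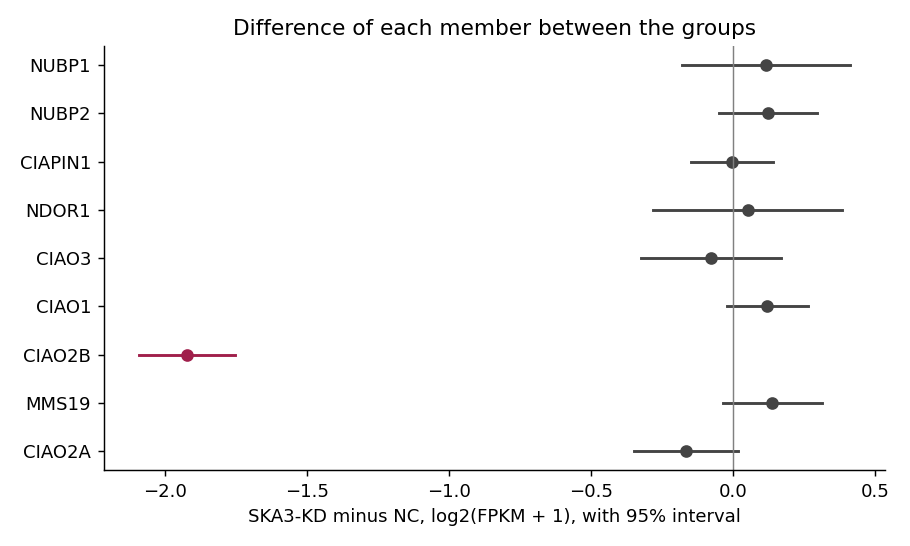
Difference between SKA3-KD and NC on the log2(FPKM + 1) scale for each member (point) with its 95% interval from limma (line). The intervals of 8 members include 0, with outer bounds of -0.35 (CIAO2A) and 0.41 (NUBP1). CIAO2B, shown as a description, lies at -1.92, and its line is no test, since the gene was chosen by this fall.

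At the scaffold, NUBP1 was at 8.04 and 6.41 FPKM in NC and at 8.19 and 7.55 FPKM in SKA3-KD. The groups overlapped, and the difference of 0.12 had a 95% interval of -0.18 to 0.41 (limma, adjusted p = 0.543). NUBP2, its P-loop NTPase partner, was at 20.4 and 22.1 FPKM in NC and at 23.0 and 23.4 FPKM in SKA3-KD. Both SKA3-KD libraries lay above the NC libraries, yet the interval of the difference ran from -0.05 to 0.30 (adjusted p = 0.275). NUBP1 had the fewest reads of the members on average, 113 to 188 per library, and its NC libraries differed by -0.33 on the log2 scale.

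In the electron transfer step, CIAPIN1 (anamorsin) was the steadiest member. Its level was 26.1 and 25.5 FPKM in NC and 25.8 and 25.7 FPKM in SKA3-KD, a difference of -0.01 with an interval of -0.15 to 0.14 (limma, adjusted p = 0.960). NDOR1, the diflavin reductase that draws electrons from NADPH, was at 12.4 and 16.3 FPKM in NC and at 14.6 and 14.9 FPKM in SKA3-KD. The SKA3-KD libraries fell between the NC libraries, and the interval of -0.28 to 0.38 was wide (adjusted p = 0.824).

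CIAO3, the hydrogenase-like bridge between scaffold and targeting complex, was the lowest member by FPKM in both groups. This place rests on the gene length behind the FPKM, which was 8101 bases for CIAO3 and 1955 bases for NUBP1. By reads, CIAO3 averaged 295 per library and NUBP1 159.5. CIAO3 was at 3.38 and 3.64 FPKM in NC and at 3.08 and 3.47 FPKM in SKA3-KD, and the groups overlapped. Its difference was -0.08 with an interval of -0.32 to 0.17 (limma, adjusted p = 0.627).

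The partners of CIAO2B in the targeting complex had slightly higher means in SKA3-KD. CIAO1, a WD-repeat protein, was at 33.9 and 33.0 FPKM in NC and at 36.2 and 36.7 FPKM in SKA3-KD (difference 0.12, interval -0.02 to 0.26, limma, adjusted p = 0.213). MMS19, the HEAT-repeat subunit that binds clients, was at 10.7 and 10.9 FPKM in NC and at 12.4 and 11.6 FPKM in SKA3-KD (difference 0.14, interval -0.04 to 0.31, adjusted p = 0.234). Neither passed the threshold. CIAO2A, the paralog, was at 50.6 and 46.7 FPKM in NC and at 44.9 and 41.7 FPKM in SKA3-KD. Its difference of -0.16 was the lowest of the 8, with an interval of -0.35 to 0.02 (adjusted p = 0.194).

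The order of the levels by FPKM, which also rests on the gene lengths used, changed for CIAO2B. In NC the order from high to low was CIAO2A, CIAO2B, CIAO1, CIAPIN1, NUBP2, NDOR1, MMS19, NUBP1 and CIAO3. CIAO2B was at position 2 of 9 in NC and at position 7 in SKA3-KD, between MMS19 and NUBP1, and the order of the other 8 was the same in both groups. No neighbours in either order overlapped between their libraries, with 2 libraries per group. Among all genes tested, the level of CIAO2B moved from percentile 90.3 in NC to percentile 61.4 in SKA3-KD.

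Within each library, CIAO2B stood at 3.75 and 3.41 times the FPKM of MMS19 in NC and at 0.770 and 0.808 times in SKA3-KD. The order of these subunits by FPKM was thus exchanged. Its ratio to CIAO1 was 1.18 and 1.13 in NC and 0.264 and 0.255 in SKA3-KD. Its ratio to CIAO2A was 0.791 and 0.798 in NC and 0.213 and 0.224 in SKA3-KD. The ratio of MMS19 to CIAO1, which does not involve CIAO2B, ranged from 0.315 to 0.343 and overlapped between the groups.

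**Figure D3:**
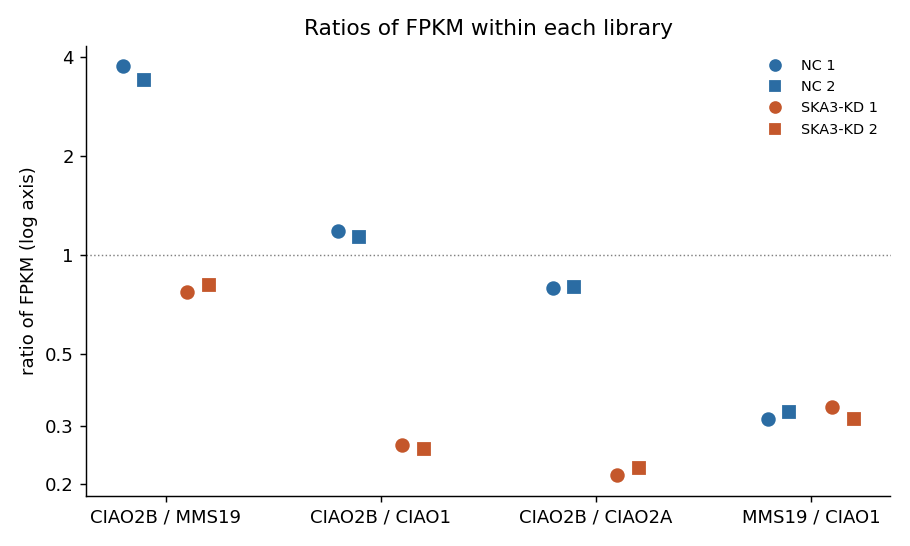
Ratio of FPKM between pairs of members within each library (log axis; circles replicate 1, squares replicate 2; dotted line at equal levels). All ratios with CIAO2B are lower in the SKA3-KD libraries, whereas MMS19 over CIAO1 lies between 0.315 and 0.343 in all 4 libraries.

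CIAO2B (ENSG00000166595) lies on the minus strand of chromosome 16 at chr16:66932055-66934423 in GENCODE 29 (GRCh38); the submitters' notes name hg19 for the files, which hold no positions. It is 1 of 5 members on that chromosome, with NUBP1, NUBP2, CIAPIN1 and CIAO3, and the differences of the other 4 were between -0.08 and 0.12. The median difference of the 591 genes tested on chromosome 16 was 0.05 on the log2 scale. CIAO2B overlaps no other annotated gene, whereas NUBP1, NUBP2, CIAPIN1 and CIAO3 overlap TVP23A, SPSB3, COQ9 and HAGHL, and strand use in counting is not given in the sources used here, so reads of these pairs may not be told apart. None of the 1206 distinct 50-base stretches of the CIAO2B transcripts was found in a transcript of another gene, and the longest run shared with CIAO2A was 11 bases. Of CIAPIN1, 4.30% of the stretches were shared with its pseudogene CIAPIN1P.

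CIAO2B starts head to head with CES2, a carboxylesterase gene on the plus strand. The starts are 20 bases apart in GENCODE 29 and 68 bases apart in RefSeq. The sequence between the RefSeq starts is shown because in RefSeq both genes begin at its ends, and their differences between the groups are of unlike size. In GENCODE 29 the starts of both genes lie inside this stretch, and that of CIAO2B, at 66934423, lies within the letters in capitals. The sequence is the minus strand of chr16:66934403-66934470 (RefSeq, GRCh38.p14), read toward CIAO2B, with the letters CGGAAG in capitals.
CIAO2B-CES2: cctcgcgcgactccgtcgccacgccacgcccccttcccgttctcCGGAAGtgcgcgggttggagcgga
CGGAAG, the core of the motif bound by ETS factors, occurs once in it. Of the 8 members with a RefSeq promoter window (250 bases before to 50 after the start, either strand), 6 hold these letters, as do 19.5% of all 35116 windows. The longer CCGGAAG, which contains CGGAAG, is in the windows of CIAO1, CIAO2B and NDOR1 and in 10.3% of all windows. The GC box (GGGCGG), the CCAAT box (CCAAT), the TATA box (TATAAA) and the E box (CACGTG) were searched on both strands as well and were not found in the CIAO2B window, and the shares of all windows that hold them were 45.0%, 34.6%, 11.5% and 7.30%. The stretch and the motifs were chosen after the values and the letters had been seen, and a match is a description only.

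CES2 was at 11.0 and 11.9 FPKM in NC and at 9.56 and 10.1 FPKM in SKA3-KD. Both SKA3-KD libraries lay below the NC libraries, with a difference of -0.20 (interval -0.39 to -0.02) that did not pass the threshold (limma, adjusted p = 0.137). Of the 10 nearest genes tested, 5 on each side of CIAO2B, B3GNT9, a glycosyltransferase gene, fell by 0.54 on the log2 scale (adjusted p = 0.0292). CBFB, a subunit of core-binding factor, rose by 0.29 (adjusted p = 0.0464). Beside these calls, 6.11% of all genes tested were called lower and 6.16% higher. Leaving out 1 library gave differences of -0.65 to -0.44 for B3GNT9 and 0.26 to 0.31 for CBFB. Neither the B3GNT9 nor the CBFB call held without the filter on low values (limma, adjusted p = 0.0936 and 0.0867). CMTM1 (-0.07), CMTM4 (0.11), DYNC1LI2 (0.17), NAE1 (0.13), PDP2 (-0.09), PHAF1 (-0.12) and TRADD (0.02) were not past the threshold.

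**Figure D4:**
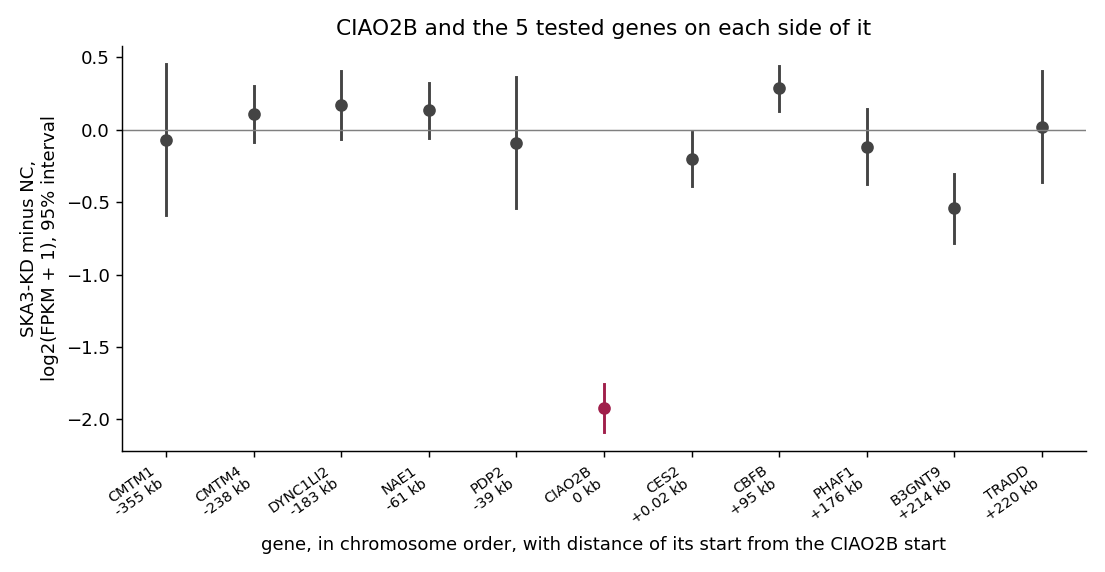
Difference between SKA3-KD and NC on the log2(FPKM + 1) scale (point) with its 95% interval (line) for CIAO2B and the 5 genes tested on each side, in chromosome order. Distances in kb run from the CIAO2B start to the nearest edge of each gene, which the axis label calls its start. CIAO2B lies at -1.92, and its line is no test, since the gene was chosen by this fall. The differences of its neighbours range from -0.54 (B3GNT9) to 0.29 (CBFB).

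Of 6 partners of the cytosolic machinery outside the 9 members, 4 were tested and none was called. Over all genes tested, 6.11% were called lower and 6.16% higher. GLRX3, a glutaredoxin that carries clusters, was at 40.8 and 37.6 FPKM in NC and at 43.2 and 42.9 FPKM in SKA3-KD (0.13, limma, adjusted p = 0.230). LTO1 (-0.15, adjusted p = 0.429) and YAE1 (-0.13, adjusted p = 0.362), the adaptors that recruit the ribosome recycling factor ABCE1, did not pass either. SLC25A5, an adenine nucleotide carrier found with MMS19 and CIAO2B, was at 409 and 403 FPKM in NC and at 366 and 360 FPKM in SKA3-KD. Its difference of -0.16 had an adjusted p of 0.101, and of 0.0451 with voom on the recovered reads. Voom called 25.4% of all genes tested in either direction. BOLA2B was under 1 FPKM in every library and was not tested, and reads of its near-identical copy BOLA2, which was not matched in the table, cannot be told apart from its own.

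Of 26 genes for cytosolic and nuclear iron-sulfur proteins, the clients of the machinery, 22 were tested. Their median difference was 0.09, against 0.01 over all genes; 2 rose and none fell, beside 6.16% of all genes tested called higher and 6.11% called lower. ERCC2, the XPD helicase of TFIIH, was at 5.29 and 6.48 FPKM in NC and at 9.03 and 9.19 FPKM in SKA3-KD, a difference of 0.56 ± 0.102 (SE, n = 2 per group, limma, adjusted p = 0.0342). POLE, the catalytic subunit of DNA polymerase epsilon, was at 7.97 and 8.54 FPKM in NC and at 10.4 and 11.3 FPKM in SKA3-KD (0.35, adjusted p = 0.0475). Leaving out 1 library gave differences of 0.43 to 0.69 for ERCC2 and 0.30 to 0.41 for POLE. With all 4 libraries the adjusted p over the settings run went from 0.000202 (voom) to 0.107 (no filter) for ERCC2 and from 0.00113 to 0.116 for POLE. Of the clients with the highest levels, POLA1, the catalytic subunit of DNA polymerase alpha, differed by 0.13 (adjusted p = 0.361), ABCE1 by -0.01 (adjusted p = 0.946) and KIF4A, a chromokinesin, by 0.36 (adjusted p = 0.0835). ACO1, the client of CIAO2A, was at 9.07 and 8.33 FPKM in NC and at 8.44 and 8.99 FPKM in SKA3-KD, a difference of 0.0022 with an interval of -0.19 to 0.20. RSAD2 was listed at 0 in every library, and XDH, AOX1 and RTEL1 were below the filter.

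Of 20 genes of mitochondrial iron-sulfur assembly, 19 were tested, with a median difference of 0.03; 1 fell and none rose, a count near the 6.11% called lower over all genes tested. ISCA1, which acts late in the making of clusters with 4 iron atoms, was at 21.9 and 18.6 FPKM in NC and at 14.8 and 14.9 FPKM in SKA3-KD (-0.42 ± 0.0915, SE, n = 2 per group, limma, adjusted p = 0.0493). The difference lay between -0.53 and -0.30 with 1 library left out. With all 4 libraries the adjusted p went from 0.00153 (voom) to 0.129 (no filter). Among the highest genes, the chaperone HSPA9 differed by 0.16 (adjusted p = 0.133), the acyl carrier protein NDUFAB1 by -0.26 (adjusted p = 0.117) and the glutaredoxin GLRX5 by 0.03 (adjusted p = 0.753). FDX2 was listed at 0 in every library.

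Of 17 genes of iron handling, 15 were in the table and tested, with a median difference of -0.10; 1 fell and 1 rose, counts near the 6.11% and 6.16% called lower and higher over all genes tested. HMOX1, the heme oxygenase that frees iron from heme, was at 6.74 and 8.81 FPKM in NC and at 1.88 and 3.17 FPKM in SKA3-KD (-1.33 ± 0.213, SE, n = 2 per group, limma, adjusted p = 0.0262). The difference lay between -1.60 and -1.06 with 1 library left out. With all 4 libraries the adjusted p went from 4.06e-05 (voom) to 0.099 (no filter). FBXL5, the iron-sensing subunit of a ubiquitin ligase, was at 5.19 and 4.85 FPKM in NC and at 6.57 and 6.73 FPKM in SKA3-KD. Its difference was 0.35 (limma, adjusted p = 0.0457), and 0.31 to 0.39 with 1 library left out. This call was lost without the filter (adjusted p = 0.117). The ferritin genes, which store iron, did not pass the threshold. FTL differed by -0.25 (adjusted p = 0.0569). FTH1 was at 247 and 320 FPKM in NC and at 220 and 259 FPKM in SKA3-KD, so its groups overlapped, and its difference of -0.24 (adjusted p = 0.336) was -0.42 without NC 1, -0.05 without NC 2, -0.12 without SKA3-KD 1 and -0.35 without SKA3-KD 2. PCBP1, an iron chaperone, differed by -0.02 (adjusted p = 0.929).

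**Figure D5:**
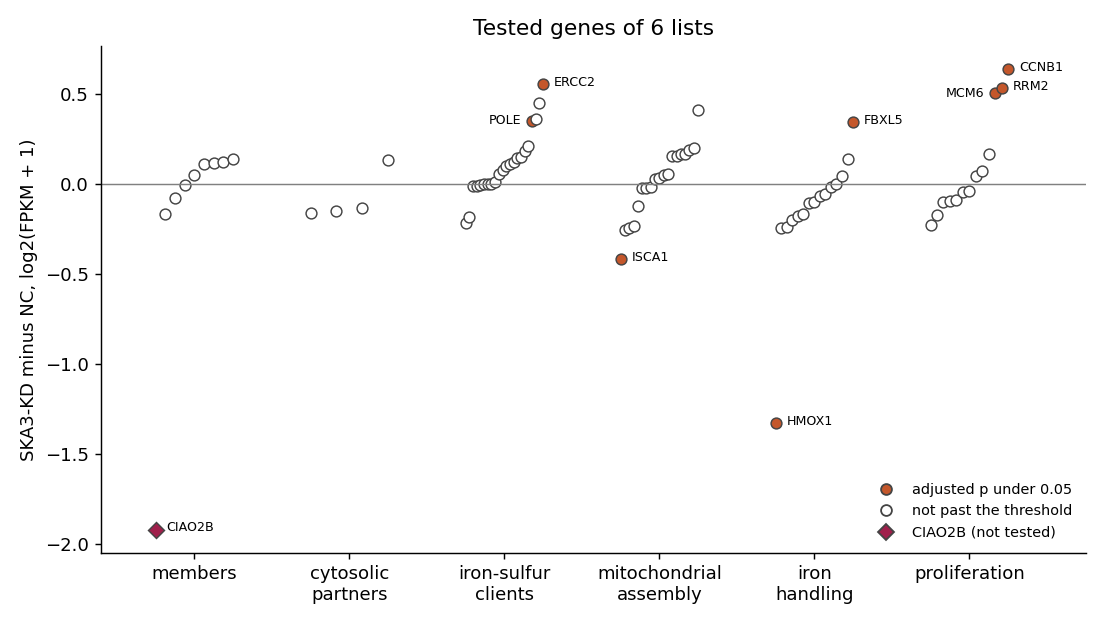
Difference between SKA3-KD and NC on the log2(FPKM + 1) scale for each tested gene of 6 lists, sorted within a list; filled circles passed an adjusted p under 0.05, open circles did not, and the diamond is CIAO2B, which was not tested. HMOX1 at -1.33 is the gene of the other lists nearest to CIAO2B at -1.92.

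Other features moved with the groups. Beside 6.16% of all genes tested called higher, 3 of 13 proliferation genes rose and none fell. Those that rose were MCM6 (0.51, limma, adjusted p = 0.0230), RRM2 (0.54, adjusted p = 0.0129) and CCNB1 (0.64, adjusted p = 0.0150). Leaving out 1 library gave 0.44 to 0.57 for MCM6, 0.50 to 0.57 for RRM2 and 0.56 to 0.72 for CCNB1. Without the filter, MCM6 (adjusted p = 0.0724) and CCNB1 (0.0638) were lost and RRM2 (0.0499) was kept. The 13 differences ranged from -0.23 to 0.64 with a median of -0.04, and MKI67 differed by 0.05. Of 6 fibroblast genes, 3 had a mean of at least 1 FPKM. The summed level of all 6 was 15.4 and 15.8 FPKM in NC and 8.86 and 9.56 FPKM in SKA3-KD. DCN was lower in SKA3-KD (8.40 and 8.36 against 2.48 and 2.35 FPKM, difference -1.46, limma, adjusted p = 0.0065). PDGFRB was higher (2.88 and 2.46 against 3.19 and 4.13 FPKM, adjusted p = 0.165 and 0.0311 with voom), and COL1A2 was at or near 0. DCN was the only call among the 3 tested, beside 6.11% of all genes tested called lower. KRT17, the keratin with the highest level among the squamous markers, was at 45.6 and 49.1 FPKM in NC and at 29.4 and 35.7 FPKM in SKA3-KD. Its difference was -0.53 (limma, adjusted p = 0.0396), the only call among the 3 squamous markers tested. The 5 leukocyte and endothelial genes in the table summed to 0.895 to 1.46 FPKM. The part of these features in the level of CIAO2B was not tested.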

How the data were processed

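RNA of TU-177 cells was isolated with Trizol, and libraries were run on an Illumina HiSeq. The authors deposited FPKM per gene; the submitters' notes name Bowtie2 2.2.8, HISAT2, StringTie 1.3.1, Cuffdiff 2.1.1 and hg19, with no role or order. Libraries were grouped by their titles. Identifiers were matched to GENCODE 29 (27199 of 28729 genes). Library sizes of 11966128, 9015054 (NC), 10177851 and 11793601 (SKA3-KD), and whole reads for 99.8% of tested genes (tolerance 0.02 reads), were recovered from the FPKM steps, 61.4% at the annotated length; these reads summed to 9791740 to 13133718, above the library sizes.

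SKA3-KD was compared with NC by limma 3.58.1 (lmFit, eBayes with trend, R 4.3.3) on log2(FPKM + 1), two-sided, over the 12645 genes averaging 1 FPKM or more, with Benjamini-Hochberg adjustment and a threshold of 0.05. The methods name no test for these data. The steps were run on simulated counts in which 200 of 12645 genes were changed. There, limma on log2(FPKM + 1) recovered 144 of the 200 with 14 false calls, and voom 190 with 11. Alternatives were voom on the recovered reads, a replicate block, leaving out each library, robust or trendless eBayes, scaling by quantiles or median of ratios, filters at 0 or 5 FPKM, and a pseudocount of 0.1. Text names all members, SKA3, cytosolic partners, list genes past the threshold or among the 3 highest per list, 5 neighbours on each side of CIAO2B, the 5 nearest profiles (1 is not reported here) and the genes ranked beside it; ACO1, RSAD2, XDH, AOX1, RTEL1, FDX2, MKI67 and the markers are named in addition. Members and lists were chosen with earlier results of these data known.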

Additional observations from a re-analysis of the deposited data

How the results depend on the processing

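CIAO2B kept its direction in every setting run, at -2.02 with a pseudocount of 0.1, -2.04 with voom, and -1.97 to -1.87 with 1 library left out. None of the other 8 members passed the threshold in any setting with all 4 libraries. Counts over all genes moved with the setting. Against 772 lower and 779 higher genes, there were 81 and 48 without a filter, 887 and 993 at a mean FPKM of at least 5, 381 and 312 without a trend, 1625 and 1581 with voom, and 0 to 135 and 0 to 46 with 1 library left out. Fits with 1 library left out leave 1 sample in a group and cannot decide single calls, so no list counts are given for them. With all 4 libraries, clients gave 0 higher without a filter or a trend and 1 with median-of-ratios scaling. They gave 4 higher at a mean FPKM of at least 5, and 4 higher and 1 lower with voom. Mitochondrial assembly gave 0 lower without a filter or a trend, and 4 lower and 1 higher with voom. Iron handling gave 0 in either direction without a filter or a trend. It gave 2 lower at a mean FPKM of at least 5 and 4 lower with voom. SKA3 ranged from -1.14 to -1.04 with 1 library left out. With the replicate number as a replicate block, 965 genes were lower and 1002 higher, CIAO2B stayed at -1.92, and iron handling gave 2 lower and 0 higher. Over 12645 genes, the differences between replicates 1 and 2 in NC correlated at 0.10 with those in SKA3-KD. This does not show that the numbers pair the samples. With 1 library left out, differences near 0 changed sign for NUBP1 (-0.028 to 0.26), CIAPIN1 (-0.021 to 0.011), NDOR1 (-0.13 to 0.23), ABCE1 (-0.028 to 0.013), PCBP1 (-0.13 to 0.10), CMTM1 (-0.29 to 0.15), PDP2 (-0.25 to 0.074) and TRADD (-0.16 to 0.20). SLC25A5, KIF4A, NDUFAB1 and FTL passed the threshold with voom (adjusted p 0.0451, 0.00714, 0.0244 and 0.00595), SLC25A5, NDUFAB1 and FTL with the replicate block (0.0401, 0.0364 and 0.0388), and KIF4A and FTL at a mean FPKM of at least 5 (0.0365 and 0.0337). Genes under a mean FPKM of 5 have no value at that filter. The cause of these shifts was not tested; leaving out a library also leaves 1 sample in its group, assumed to vary like the other group. CIAO2B rests on 104 to 512 reads per library, and over all genes replicates differed by more than read counting gives (chi-square per degree of freedom 4.04 in NC and 3.98 in SKA3-KD).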
